A study of Homo sapiens with 6 samples.

Results

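The genes described here are 9 transcription factors that steer the choice between myeloid cell fates: SPI1, CEBPA, CEBPD, CEBPE, GFI1, GFI1B, MAF, BCL6 and ZEB2. They were taken by symbol, and all 9 had a row among the 34371 features of the count table. The table comes from ME-1, a human acute myeloid leukaemia line that carries the CBFB::MYH11 fusion. Cells of one group of 3 libraries had received an empty control vector, and cells of the other group of 3 a vector that overexpresses SPNS2, a transporter of sphingosine-1-phosphate. Both groups had thus been transduced and put through selection before polyadenylated RNA was sequenced. The sources used here give neither the agent used for selection nor the promoter of the vector. The comparison asks what added SPNS2 did to these factors.

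Blood progenitors become granulocytes or monocytes under a small set of DNA-binding proteins that act at each other's genes. SPI1 encodes PU.1, an ETS factor needed for the whole myeloid branch, and the C/EBP proteins are leucine zipper factors that drive granulocyte formation. GFI1 and GFI1B are zinc finger repressors that recruit KDM1A and RCOR1, with GFI1 acting mainly on the granulocyte side and GFI1B in red cells and platelets. MAF is a leucine zipper factor of macrophages. BCL6 and ZEB2 are zinc finger repressors with roles in lymphoid cells and in monocytes and dendritic cells. The fusion protein in this leukaemia acts on RUNX1, another factor that works with PU.1 and C/EBP proteins at myeloid genes.

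Library totals ranged from 28605187 to 38489992 counts, and TMM factors, which correct for composition, from 0.993 to 1.01. The vector sequence of SPNS2 had a row of its own, with 9, 3 and 0 counts in the empty vector libraries and 24792 to 25752 with SPNS2. All 8 myeloid identity markers were expressed, and by edgeR 3 rose, 3 fell and 2 were not called. Of all features tested, 24.5% were called, 11.9% higher and 12.6% lower. Named after their values were seen, CD33, a myeloid surface antigen, had a log2 fold change of -0.71, CD34, a progenitor antigen, of -0.25 and KIT, the stem cell factor receptor, of 0.55 (adjusted p = 2.45e-06, 0.000397 and 3.68e-08 by edgeR). MPO, the granule peroxidase of neutrophil precursors, was not called, with 26140 ± 221 CPM (SD, n = 3) in empty vector libraries and 26000 ± 759 CPM in SPNS2 libraries. CPM are counts per scaled library total, here with TMM factors. Defining markers of other lineages were at 0 counts in all 6 libraries, such as HBB, PF4, MS4A1 and CD2. The labels name no separate cultures for the 3 libraries of a group. P-values therefore reflect spread among these samples alone, and that spread may be technical.

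Among related genes, reads can be credited to the wrong member only where the transcripts are alike. For SPI1, CEBPA, MAF and BCL6, no word of 31 bases of the GENCODE 29 transcripts occurred in another member or in the 14 relatives listed. For the other members the share of words found in another of these genes was 0.0353% for ZEB2, 0.131% for CEBPE, 0.245% for GFI1, 0.442% for GFI1B and 0.978% for CEBPD, where it lay with CEBPB. The closest stretch of GFI1 and GFI1B is printed because GFI1 was the most abundant member and GFI1B one of the rarest. It lies in coding sequence, on GRCh38 at chr1:92476102-92476199 (minus strand, exon 7) and chr9:132990880-132990977 (plus strand, exon 6), and capitals mark the longest identical run of 38 bases.
GFI1: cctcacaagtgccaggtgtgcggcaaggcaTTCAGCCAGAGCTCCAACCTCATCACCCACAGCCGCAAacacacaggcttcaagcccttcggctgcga
GFI1B: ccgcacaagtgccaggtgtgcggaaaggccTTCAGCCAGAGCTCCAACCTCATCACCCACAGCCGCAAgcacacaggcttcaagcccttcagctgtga
The pair matched at 92 of these 98 bases. Only 8 words of 31 bases were shared by the whole pair of genes.

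Of the 9 members, 7 had enough counts to be tested, and MAF and GFI1B did not. With edgeR's quasi-likelihood test and an adjusted p under 0.05 over all 13308 tested features, 1 member fell, none rose and 6 were not called. Across all tested features 24.5% were called, 11.9% higher and 12.6% lower, so a count of 1 in 7 is no more than that background. At an unadjusted p under 0.05 the member that fell, CEBPD, was again the only one of the 7, and it was the only one called by DESeq2 and by limma voom. The median log2 fold change of the 7 was -0.027, beside 0.0026 over all tested features. The groups did not overlap for 2 of the 7 members, CEBPD and SPI1, both with the SPNS2 libraries lower. Among all tested features the groups did not overlap for 40.1%, with SPNS2 higher for 19.8% and lower for 20.3%.

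**Figure D1:**
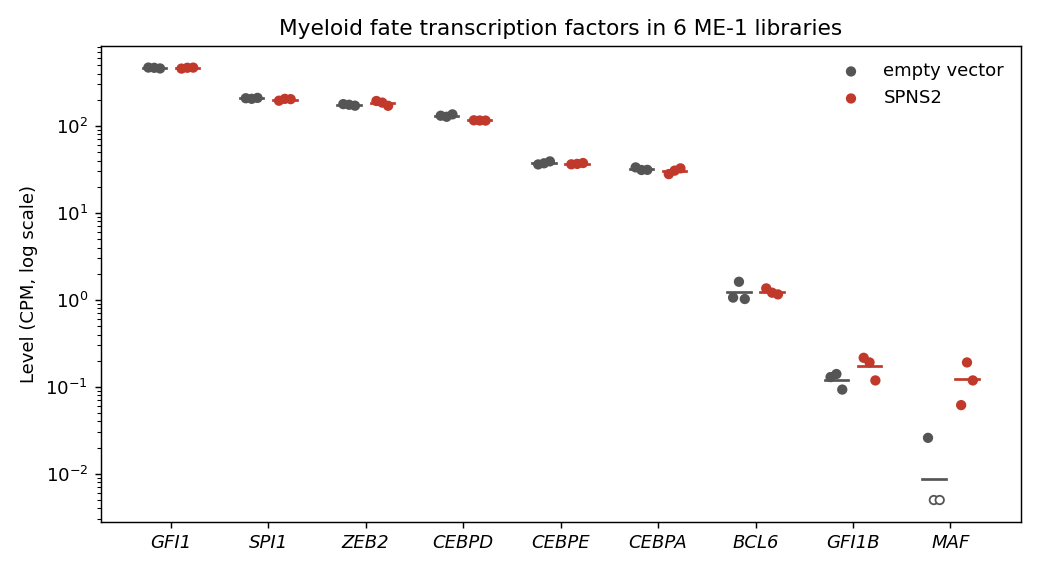
Level of each member in CPM (log scale) in each of the 6 libraries, grey for the empty vector and red for SPNS2. Points are libraries, short lines are group means, and open points stand for 0 counts, drawn at the bottom of the axis. GFI1 stood between 456.5 and 469 CPM in all 6 libraries, and MAF had at most 6 counts in any library.

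SPI1 (ENSG00000066336.12), which encodes PU.1, was at 208, 205 and 210.2 CPM in empty vector libraries 1 to 3 and at 195, 205 and 203 CPM in the SPNS2 libraries. The highest SPNS2 library (204.9 CPM) lay just under the lowest empty vector library (205.1 CPM). The log2 fold change was -0.048 (SE 0.0277, adjusted p = 0.246 by edgeR). The 95% interval of the change ran from -7.24% to 0.917%, so it held falls of several percent and hardly any rise.

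Of the C/EBP members, CEBPD was called lower and the other two were not called. CEBPD (ENSG00000221869.5), which encodes a C/EBP protein induced by cytokines and stress, was at 131, 127.5 and 136 CPM with the empty vector and at 116, 115.5 and 115 CPM with SPNS2. All 3 SPNS2 libraries lay below all 3 empty vector libraries and close to each other. CEBPD fell by 0.19 in log2 terms (SE 0.0305, adjusted p = 0.00131 by edgeR), or by 12.1% with a 95% interval of the change from -16.1% to -7.92%. In bulk RNA, fewer cells with CEBPD and less CEBPD RNA per cell cannot be told apart. Of all tested features, 28.4% had a larger change in absolute log2 terms. The call held in each of the 14 alternatives run, with log2 fold changes from -0.21 to -0.16.

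CEBPA (ENSG00000245848.3), the C/EBP factor that commits progenitors to granulocytes and monocytes, was at 33.4, 31.2 and 31.3 CPM with the empty vector. With SPNS2 it was at 27.95, 30.6 and 32.5 CPM, so the groups overlapped and SPNS2 library 3 lay above a pair of the control libraries. The log2 fold change was -0.074 (SE 0.0569, adjusted p = 0.390 by edgeR), with a 95% interval from -12.9% to 3.60%. That interval takes in a fall as large as that of CEBPD. CEBPE (ENSG00000092067.6), which acts late, in the formation of neutrophil secondary granules, was at 36.1, 37.2 and 39.1 CPM with the empty vector and at 36.2, 36.6 and 37.5 CPM with SPNS2. Its groups overlapped, and the 95% interval of its change ran from -7.65% to 4.36% (adjusted p = 0.681 by edgeR).

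Ratios within a library compare the paralogs without any scaling between libraries; these pairs were chosen after the values were seen and were not tested. The log2 ratio of CEBPD to CEBPE counts was 1.86, 1.78 and 1.80 with the empty vector and 1.68, 1.66 and 1.62 with SPNS2. It was lower in every SPNS2 library than in any empty vector library, by 0.16 on average. The log2 ratio of CEBPD to CEBPA was 1.97, 2.03 and 2.12 with the empty vector and 2.05, 1.92 and 1.82 (1.825) with SPNS2. Those groups overlapped, so a different response of CEBPD and CEBPA was not resolved.

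**Figure D2:**
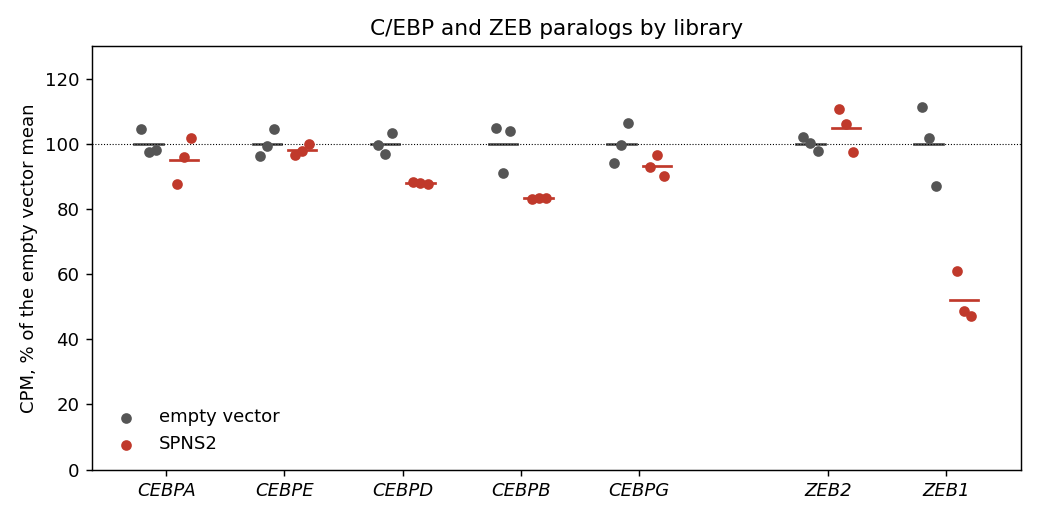
Level of 5 C/EBP genes and the ZEB pair in each library, as a percentage of the empty vector mean of that gene, grey for the empty vector and red for SPNS2; points are libraries and short lines are group means. For CEBPD, CEBPB and ZEB1 all 3 SPNS2 libraries lie below all controls, while ZEB2 has SPNS2 libraries on both sides of its controls.

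Among the repressors, GFI1 (ENSG00000162676.12) was the most abundant member in CPM, at 469, 466 and 458 CPM with the empty vector and at 456.5, 467 and 468.5 CPM with SPNS2. The groups covered nearly the same range. The group means were 464.5 ± 5.64 and 463.9 ± 6.40 CPM (SD, n = 3 each). The 95% interval of the change, from -3.60% to 3.44%, was the narrowest of the 7 members (adjusted p = 0.962 by edgeR), and 98.9% of all tested features had a larger absolute log2 fold change.

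The promoter of GFI1 at its second RefSeq start (GRCh38.p14, chr1:92486100-92486349, minus strand) is shown because it holds letters that other members and RUNX1 are known to bind. It lies inside the GFI1 gene as GENCODE 29 draws it and outside its exons. Capitals mark GGAA, the core of ETS sites, TTGCNNAA, a C/EBP word, and TGTGGT, a RUNX word, each searched on both strands; the words marked do not overlap.
GFI1 promoter: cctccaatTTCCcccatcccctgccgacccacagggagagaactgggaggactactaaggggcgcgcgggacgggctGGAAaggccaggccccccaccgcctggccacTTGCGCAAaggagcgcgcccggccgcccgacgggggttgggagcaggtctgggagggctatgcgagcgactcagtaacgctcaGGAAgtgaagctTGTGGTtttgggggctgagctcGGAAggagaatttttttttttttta
The C/EBP word starts at -142 and the RUNX word at -47, counted from the RefSeq start, which follows the last base printed. Of 35116 RefSeq windows of 250 bases upstream of a start, 9.05% held the C/EBP word, 11% the RUNX word and 92.7% GGAA. RefSeq gave 11 such windows for 7 of the 9 members, and the C/EBP word was in 1 of them, the RUNX word in 2 and GGAA in 10. These are matches of letters, not sites shown to be bound in ME-1.

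ZEB2 (ENSG00000169554.22) was at 178, 175 and 171 CPM with the empty vector and at 194, 185.5 and 170.5 CPM with SPNS2. SPNS2 libraries 1 and 2 lay above all controls, and SPNS2 library 3 lay just below them. The log2 fold change was 0.067 (SE 0.0415, adjusted p = 0.279 by edgeR), with a 95% interval from -1.67% to 11.6%. Without SPNS2 library 3 the log2 fold change was 0.12 and the adjusted p was 0.0367, so that library decided whether ZEB2 was called. ZEB1, its paralog, fell: its mean was 6.43 ± 0.792 CPM in empty vector libraries and 3.36 ± 0.490 CPM in SPNS2 libraries (SD, n = 3 each). The log2 fold change of ZEB1 was -0.94 (SE 0.135, adjusted p = 0.000588 by edgeR). The log2 ratio of ZEB2 to ZEB1 was 4.64, 4.75 and 4.94 with the empty vector and 5.63, 5.89 and 5.82 with SPNS2. The ratio was higher in every SPNS2 library, by 1.01 on average; this pair too was chosen after its values were seen.

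BCL6 (ENSG00000113916.18) was the tested member with the fewest counts, at 41, 46 and 33 in the empty vector libraries and 44, 38 and 39 with SPNS2. In CPM these were 1.06, 1.62 and 1.02 against 1.36, 1.21 and 1.16, and the groups overlapped. The 95% interval of its change ran from -27.5% to 42.0% (adjusted p = 0.960 by edgeR).

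Both untested members were close to absent. GFI1B (ENSG00000165702.15) had 5, 4 and 3 counts in the empty vector libraries, beside 7, 6 and 4 in the SPNS2 libraries. The ratio of pooled rates was 1.44 (exact 95% counting interval 0.649 to 3.31), so a difference was not detectable at this depth. MAF (ENSG00000178573.7) had 1, 0 and 0 counts in the empty vector libraries, beside 2, 6 and 4 in the SPNS2 libraries. Every SPNS2 library lay above every empty vector library, and the ratio of pooled rates was 12.2 with a counting interval of 1.81 to 522. With no filter on low counts edgeR gave MAF an adjusted p of 0.0644, and DESeq2 gave an unadjusted p of 0.0409 and no adjusted one. The mean level of MAF with SPNS2 was 0.124 ± 0.0648 CPM (SD, n = 3), and per kilobase of its longest coding transcript it was 0.0194 ± 0.0102 CPM, below the 0.348 ± 0.0291 CPM per kb of BCL6, the lowest tested member. For a library with no count, 3 counts taken as the limit stand for 0.0778 to 0.105 CPM. These intervals and limits cover counting error only.

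**Figure D3:**
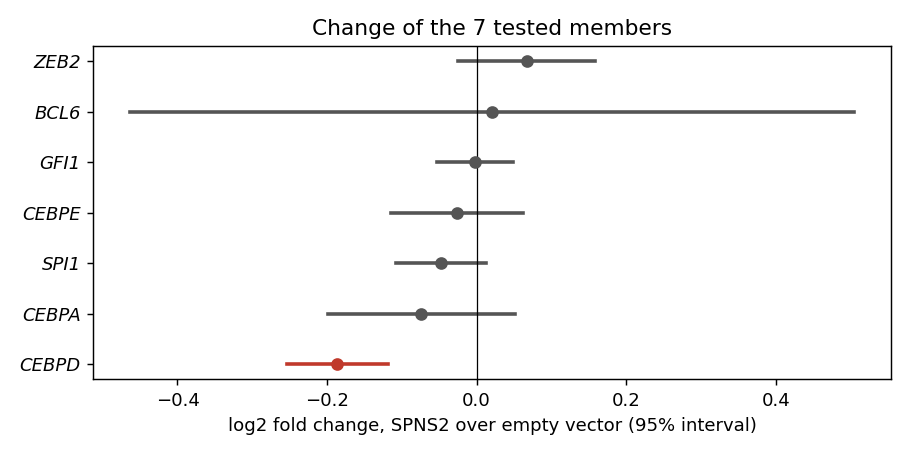
Log2 fold change of the 7 tested members (SPNS2 over empty vector), with the 95% interval from the edgeR fit. CEBPD, in red, is the member with an adjusted p under 0.05, and BCL6 has the widest interval, from -0.464 to 0.505.

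Levels of different genes can be compared only per length. Divided by the longest coding transcript in GENCODE 29, the members stood in the order GFI1 (163 ± 1.97 CPM per kb), SPI1 (148 ± 1.83), CEBPD (60.4 ± 1.93), CEBPE (24.1 ± 0.988), ZEB2 (18.2 ± 0.378) and CEBPA (12.1 ± 0.475) in the empty vector libraries (SD, n = 3). BCL6 followed at 0.346 ± 0.0927 CPM per kb, with GFI1B at 0.0494 ± 0.0101 and MAF at 0.00135 ± 0.00235. Neighbours in this order differed by more than the sum of their SDs. The order depended on the length used: with the median coding transcript in its place, SPI1 (169 CPM per kb) came before GFI1 (167) and ZEB2 (66.0) moved to the third place. Which annotation the authors used is not known here.

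The member with a call was set beside the genes whose level over the 6 libraries was most like its own. For CEBPD, Pearson's r of log2 CPM was highest with SNRPF, a core protein of the splicing machinery, and NRIP3, at 0.994 each over 6 libraries. With 2 groups of 3 such values are common: 310 of 11605 genes had an r over 0.95 with CEBPD. SNRPF had a log2 fold change of -0.17 and NRIP3 of -0.26.

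Among relatives of the members, 1 C/EBP gene beside CEBPD and the paralog of ZEB2 fell in every alternative run. Of 14 relatives 10 were tested, and 3 fell, none rose and 7 were not called, with a median log2 fold change of -0.060. Over all tested features 24.5% were called, 11.9% higher and 12.6% lower. CEBPB, a C/EBP factor of monocytes and of emergency granulopoiesis, was at 34.8, 30.2 and 34.5 CPM with the empty vector and at 27.55, 27.7 and 27.6 CPM with SPNS2. No library of one group reached into the other, and CEBPB fell by 0.27 in log2 terms (SE 0.0546, adjusted p = 0.00476 by edgeR). CEBPZ, named for its binding to CCAAT boxes and not a leucine zipper protein, fell from 49.7 ± 1.97 to 45.0 ± 1.20 CPM (SD, n = 3 each; adjusted p = 0.0201 by edgeR), a call lost without empty vector library 3 (0.0862), without SPNS2 library 3 (0.0824) and with DESeq2 (0.0589). CEBPG, a short C/EBP protein without an activation domain, had a log2 fold change of -0.10 that was not called (adjusted p = 0.131 by edgeR), and was called without empty vector library 1 (0.0292). ZEB1 was the third relative that fell. SPIC, a relative of PU.1, had 0 counts in all 6 libraries.

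Factors that work with the members at myeloid genes changed in both directions. Of 25 partner factors 22 were tested, and 6 rose, 3 fell and 13 were not called, with a median log2 fold change of 0.066. The shares over all tested features were 11.9% higher and 12.6% lower. JUN, the AP-1 subunit that PU.1 uses as a coactivator at monocyte genes, was at 40.0, 43.3 and 42.1 CPM with the empty vector and at 26.9, 25.6 and 25.6 CPM with SPNS2 (log2 fold change -0.68 with an SE of 0.0436, adjusted p = 2.45e-06 by edgeR). IRF8, the PU.1 partner that favours monocytes over granulocytes, was at 14.7, 15.6 and 13.5 CPM with the empty vector and at 9.75, 9.52 and 9.94 CPM with SPNS2 (log2 fold change -0.58 with an SE of 0.0697, adjusted p = 0.000185). TAL1, a helix-loop-helix factor of stem and red cells, was at 4.05, 5.34 and 4.62 CPM with the empty vector and at 1.91, 1.97 and 2.08 CPM with SPNS2 (log2 fold change -1.23). In none of these 3 did the groups overlap. Of the 22 tested partners the groups did not overlap for 12 with SPNS2 higher and 4 with SPNS2 lower. The shares without overlap over all tested features were 19.8% and 20.3%.

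ID2, which blocks helix-loop-helix factors, was the partner with the largest rise, from 5.47, 5.73 and 6.33 CPM to 12.8, 12.2 and 12.3 CPM (log2 fold change 1.09 with an SE of 0.0817, adjusted p = 8.11e-06 by edgeR). The other 5 that rose, named after their values were seen, were RUNX1 (0.13), FLI1 (0.13), ETV6 (0.14), RARA (0.23) and ID1 (0.24 on the log2 scale). RUNX1, which with CBFB forms the core binding factor hit by the fusion, rose from 243 ± 0.0230 to 265 ± 7.03 CPM (SD, n = 3 each). Without SPNS2 library 2 the number of partners that rose dropped from 6 to 3, since ETV6, RARA and ID1 then had adjusted p-values of 0.0555, 0.121 and 0.0502. ID1 and RARA were also not called by DESeq2 (0.115 and 0.0820). RARA lost its call as well when empty vector library 1 (0.0976) or 3 (0.0581) was left out, or SPNS2 library 1 (0.0851). ID1 lost it when empty vector library 1 (0.0542) or 3 (0.0787) was left out, or SPNS2 library 1 (0.0543) or 3 (0.0747), and with no filter on low counts (0.0504). GATA1 and KLF4 had 0 counts in all 6 libraries.

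Among corepressors and cofactors 1 gene rose, 2 fell and 13 were not called of 16 tested, with a median log2 fold change of -0.015. These counts are no more than the share of 24.5% called over all tested features. TRIB1, a pseudokinase that directs C/EBPα to degradation, was at 35.5, 37.1 and 37.7 CPM with the empty vector and at 30.4, 31.3 and 31.9 CPM with SPNS2. These groups did not overlap, and TRIB1 fell by 0.24 in log2 terms (SE 0.0404, adjusted p = 0.00173 by edgeR). SMARCD2, a chromatin remodelling subunit that works with C/EBPε in granulocytes, fell from 409.5 ± 4.11 to 383 ± 3.90 CPM (adjusted p = 0.00976), and HDAC3, a deacetylase of corepressor complexes, had a log2 fold change of -0.074 that was not called (adjusted p = 0.101). CREBBP, an acetyltransferase, rose by 0.15 in log2 terms (adjusted p = 0.0392), a call lost when empty vector library 2 (0.139) or 3 (0.0632) was left out, and when SPNS2 library 1 (0.0573) or 2 (0.151) was. Without SPNS2 library 3, 2 corepressors rose. The GFI1 cofactors KDM1A and RCOR1, named after their values were seen, had log2 fold changes of -0.013 and -0.00044, with adjusted p-values of 0.756 and 0.995.

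**Figure D4:**
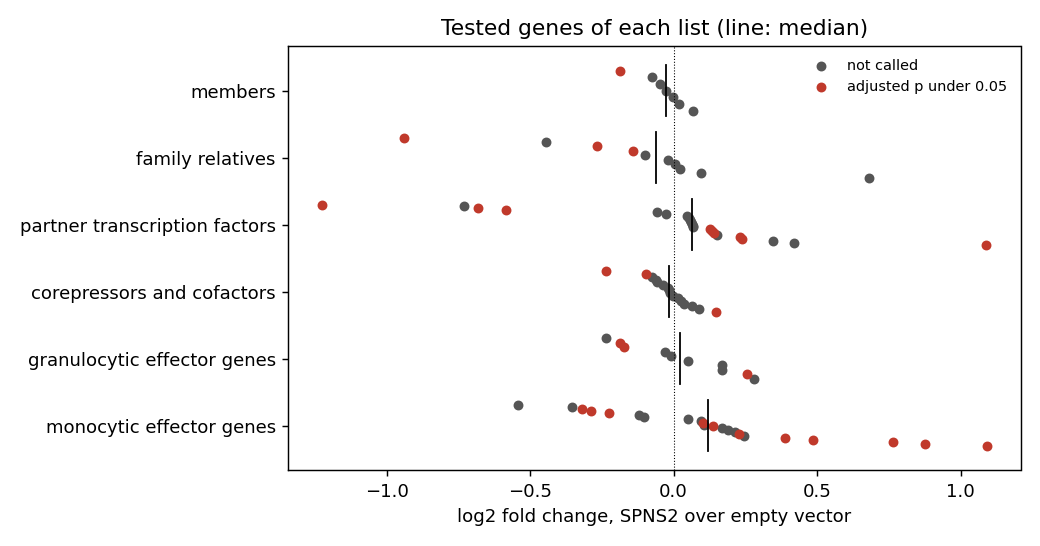
Log2 fold change (SPNS2 over empty vector) of every tested member and of every tested gene in 5 lists of related genes. Points are genes, red where the adjusted p was under 0.05, and vertical lines are list medians, which run from -0.060 for the relatives to 0.12 for the monocytic genes.

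Effector genes of monocytes and granulocytes, some of them known targets of PU.1 or C/EBP factors, were counted next. Counts over these lists do not measure the activity of those factors. Of 22 tested monocytic effector genes 8 rose, 3 fell and 11 were not called, with a median log2 fold change of 0.12. Beside this, 11.9% of all tested features were called higher and 12.6% lower. CSF1R, the M-CSF receptor and a textbook PU.1 target, was at 4.15, 3.76 and 3.57 CPM with the empty vector and at 6.91, 6.88 and 7.33 CPM with SPNS2 (log2 fold change 0.88 with an SE of 0.101, adjusted p = 0.000142 by edgeR). IL6R, the interleukin-6 receptor, rose from 18.9 ± 0.514 to 32.1 ± 0.642 CPM, and CD68, a lysosomal glycoprotein of macrophages, from 54.9 ± 1.94 to 76.9 ± 2.82 CPM (SD, n = 3 each). In all 3 genes every SPNS2 library lay above every control.

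Of the 3 monocytic genes that fell, FCGR1A, a high-affinity IgG receptor, and SIRPA, the receptor for CD47, fell by 0.29 and 0.23 on the log2 scale (adjusted p = 0.000158 and 0.000446 by edgeR), and LYZ, lysozyme, by 0.32 (adjusted p = 0.0386); these were named after their values were seen. The call of LYZ was lost without each of empty vector libraries 1 to 3 (0.0754, 0.146 and 0.0620), without SPNS2 library 1 (0.0783) or 2 (0.133) and with DESeq2 (0.0868). CD14, the classical monocyte marker, had at most 0.0307 CPM as a group mean. The summed level of 8 mast cell and basophil markers was 4.39 to 4.72 CPM with the empty vector and 11.1 to 11.9 CPM with SPNS2, mostly from TPSB2, a tryptase gene. Of these 8 markers 2 were tested and 1 was called, beside 24.5% called over all tested features, and FCER1A was at 0 counts. What part the mast cell markers had in the changes of monocytic genes was not tested.

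Among granulocytic effector genes, the receptor for G-CSF rose. Of 20 listed, 10 were tested, and 1 rose, 2 fell and 7 were not called, with a median log2 fold change of 0.022. That is near the share of 24.5% called over all tested features. CSF3R, the G-CSF receptor and a C/EBPα and PU.1 target, was at 1032, 999 and 1015 CPM with the empty vector and at 1201, 1214 and 1223 CPM with SPNS2. It rose by 0.26 in log2 terms (SE 0.0211, adjusted p = 1.61e-05 by edgeR), with no overlap between groups. FUT4, which makes the CD15 antigen, fell from 133 ± 1.76 to 117 ± 1.94 CPM (adjusted p = 0.000762). PRTN3, a serine protease of primary granules, fell by 0.17 in log2 terms (adjusted p = 0.0289) with overlapping groups, and its call was lost without empty vector library 2 (0.101) or 3 (0.113), without SPNS2 library 1 (0.0709), 2 (0.107) or 3 (0.0574) and with DESeq2 (0.0999). CXCR2, a receptor for interleukin-8, was not called (adjusted p = 0.0971), with a log2 fold change of 0.28. Genes of the secondary and tertiary granules, which C/EBPε switches on late, were at 0 counts in all 6 libraries for LTF, CAMP, LCN2, MMP8 and MMP9, although CEBPE itself was expressed. Whether 0 counts meant no transcript or reads not credited to that row was not tested, here or for the other genes given at 0 counts. Named after their values were seen, EHMT2 of the cofactor list was also at 0 counts in all 6 libraries. AZU1 of the granulocytic list had a mean of 0 CPM with the empty vector and of 4.097 ± 7.095 CPM with SPNS2 (SD, n = 3).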

How the data were processed

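The authors' deposited table gives 1 estimated count per gene and library, made with Salmon per the submitters' processing notes. Libraries came from a TruSeq stranded mRNA kit, per the labels' protocols. Salmon's version, the genome build and the annotation are not stated in the sources used here. All 6 columns were used, and no value needed rounding. The groups of 3 empty vector and 3 SPNS2 libraries were taken from the labels. Replicates differed by more than counting noise (chi-square over its degrees of freedom 2.89 to 5.85).

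Counts were filtered with filterByExpr (minimum count 10, minimum total 15), scaled by TMM and tested with the edgeR 4.0.16 quasi-likelihood test in R 4.3.3 with group as the only term. P-values were Benjamini-Hochberg adjusted over 13308 features, with a threshold of 0.05. The SE came from F and the log2 fold change, and 95% intervals use it with the t quantile of the fit. CPM use TMM-scaled totals. Ratios of pooled counts have exact intervals. The fit was also run on counts simulated from its own means and spread. That run checks the code and cannot show how well changes as small as that of CEBPD were recovered. Alternatives were DESeq2 1.42.0, limma voom 3.58.1, other scalings and filters, a replicate block and leaving out each library.

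Members and lists were chosen with earlier results of these data known. Genes were named by this rule: all members, up to 4 genes of each list with the smallest p, and the 2 genes most like each called member. Any other gene named was chosen after its values were seen, and some genes that the rule covers are not reported here. Sequences come from RefSeq (GRCh38.p14) and GENCODE 29 (GRCh38), whose coordinates may not be of the authors' build.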

Additional observations from a re-analysis of the deposited data

How the results depend on the processing

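CEBPD kept its direction and its call under all 14 alternatives (adjusted p from 1.93e-05 to 0.00774), and SPI1 and CEBPA kept theirs without a call. GFI1 had no stable sign: its log2 fold change was 0.011 with upper-quartile scaling and 0.0071 with library totals only, and -0.012 to 0.0092 (0.00924) with single libraries left out. With single libraries left out, CEBPE ranged from -0.055 to 0.0056, BCL6 from -0.091 to 0.25 and ZEB2 from 0.025 to 0.12. In those fits 0 to 1 members rose, 3 to 6 partner factors rose, 0 to 2 corepressors rose and 1 to 3 granulocytic genes fell. DESeq2 called 1 granulocytic gene lower, and with no filter on low counts 2 granulocytic genes rose. Replicate numbers showed no sign of pairing: deviations of same-numbered libraries correlated at -0.0176, -0.0271 and -0.0748, and no library matched its own number best. With 3 libraries per group, this cannot show that same-numbered libraries were handled apart. With the replicate block, 1301 features were higher and 1422 lower, CEBPD stayed the only member called (adjusted p = 0.00542) and 0 corepressors rose. The block also ended the calls of CREBBP (0.0743), ID1 (0.059), LYZ (0.071) and TYROBP (0.0578), and no other call of a listed gene named in the text. Ratios of paralogs were added after seeing the data and kept their sign in all 18 fits that left out a library. Depth limited MAF, GFI1B and BCL6.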
